A study of Mus musculus with 8 samples.

Results

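The heat shock proteins and chaperonins are described here as 81 genes of the 18193 that the array names. They are all the genes whose symbol begins with Hspa, Hspb, Hspd, Hspe, Hsph, Hsp90, Dnaja, Dnajb or Dnajc, or is Cct followed by a digit. The rule reads symbols only. The 81 genes had 200 probe sets, and each gene was read from the probe set with the highest mean over all arrays. Of these genes, 70 passed a filter on low signal and were tested, and 11 lay below it. The spelling of the symbols also takes in Hspbp1 and Hspbap1, which encode proteins that bind heat shock proteins, and Hspb11, which encodes a component of intraflagellar transport. It leaves out Tcp1, the alpha subunit of the same cytosolic ring as the Cct genes, which was treated as a partner. Hsp90ab1 and Dnajc19 had no probe set with only their name and were not analysed here.

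The arrays measured RNA of primary CD8 T cells from the spleens of C57BL/6 mice. The cells were purified by positive selection on magnetic columns and held in culture for 18 h beside dendritic cells grown from bone marrow, 10 T cells to each dendritic cell, after which CD11c-positive cells were taken out. Wild-type (WT) cells met dendritic cells that had no peptide (WT non-pulsed) or that carried N4, an ovalbumin peptide (WT N4), and cells labelled PKC theta KO and p50 cRel DKO met N4-carrying dendritic cells only. PKC theta is a kinase downstream of the T cell receptor, and p50 and cRel are NF-kB subunits. All 4 groups had 2 arrays, and no knockout culture without peptide was part of the design. The sources used here do not state the antigen receptor of the T cells, the number or age of the mice, or whether both arrays of one group stem from different animals. The p-values therefore measure the spread between these arrays, which may be technical.

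Chaperones bind unfolded chains and let them fold through cycles of ATP hydrolysis. HSP70 proteins are driven by DNAJ partners, which bring substrates and trigger hydrolysis, and by exchange factors such as the HSP110 proteins, which release the nucleotide. HSP90 acts on nearly folded clients such as kinases, while the CCT ring of the cytosol and the HSP60 and HSP10 ring of mitochondria enclose chains in a chamber, with actin and tubulin as the classic CCT clients. An activated T cell enlarges and makes much new protein before it divides, and so has many chains to fold.

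Levels are given as log2(signal + 16), differences are on that scale, and a gene is said to rise or fall where the limma adjusted p was under 0.05 over 12520 genes. All arrays had the same 2% trimmed mean of 500, and their median signal lay between 33.8 and 70.5. Rel was at 6.19 and 5.92 in p50 cRel DKO N4 cells and between 8.97 and 10.09 on the other arrays. Prkcq was at 11.00 and 10.75 in PKC theta KO N4 cells and between 11.30 and 11.90 elsewhere, and the sources used here do not state where its probes lie relative to the deletion. The purified cells expressed Cd3d, Cd3e, Cd3g, Cd8a and Cd8b1, with no such marker under 3689 in signal in the N4 cultures. Markers of other cells were present mainly in WT non-pulsed cells. The summed signal of 9 B cell markers was 27920 to 40890 in WT non-pulsed, 568.3 to 2214 in WT N4, 1558 to 2991 in PKC theta KO N4 and 2421 to 2584 in p50 cRel DKO N4 cells. For 11 markers of dendritic cells and macrophages, in the same order, it was 65350 to 84290, 4777 to 9406, 7270 to 8144 and 6119 to 6170. For 6 neutrophil markers it was 23630 to 26020, 290.8 to 835.8, 362.8 to 699.3 and 405 to 517.6. All markers of these 3 lists fell with N4 in WT cells, whereas of the 5 CD8 T cell markers Cd8a rose by 1.07 and the others did not pass. Fewer cells of a type and less RNA per cell cannot be told apart here, and the part of these cells in the results below was not tested.

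Heat shock genes are classically driven by heat shock factors, which bind repeats of GAA and its complement TTC in alternate orientation, the heat shock element. RefSeq promoter sequences (assembly GRCm38.p6) were at hand for 67 of the 81 genes, and the 250 bases before the first listed start of each were searched on both strands. The pair GAANNTTC was found in 9 of the 67 windows (13.4%) and in 5.50% of the windows of 14368 genes on the array, and the pair TTCNNGAA in 5 (7.46%) and 6.33%. The triplet GAANNTTCNNGAA, which contains both pairs, was found in 2 windows (2.99%), those of Hspe1 and Dnajb6, and in 0.348% of all. The windows of Hspa1a and Hspa1b, the stress-inducible HSP70 pair, are shown whole because the results below set this pair side by side, and the others are cut to 30 bases around their match. Capitals mark the matches, all sequences run toward the gene, and a match is a run of letters, not a shown binding site.
Hspa1b, chr17:34959239-34959488, minus strand: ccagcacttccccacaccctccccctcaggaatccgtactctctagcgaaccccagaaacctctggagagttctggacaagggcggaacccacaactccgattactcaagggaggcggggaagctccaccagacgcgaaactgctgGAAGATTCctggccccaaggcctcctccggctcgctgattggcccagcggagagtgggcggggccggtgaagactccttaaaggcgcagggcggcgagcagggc
Hspa1a, chr17:34972157-34972406, minus strand: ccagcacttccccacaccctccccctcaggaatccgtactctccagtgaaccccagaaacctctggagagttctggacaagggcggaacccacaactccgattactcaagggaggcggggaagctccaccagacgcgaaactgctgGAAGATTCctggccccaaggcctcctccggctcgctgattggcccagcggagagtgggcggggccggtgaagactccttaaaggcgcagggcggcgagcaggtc
Hspe1, chr1:55088053-55088082, plus strand: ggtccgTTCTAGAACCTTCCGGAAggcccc
Dnajb6, chr5:29735843-29735872, plus strand: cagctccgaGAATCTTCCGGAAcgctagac
Cct5, chr15:31601862-31601891, minus strand: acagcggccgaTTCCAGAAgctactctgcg
Hsph1, chr5:149636351-149636380, minus strand: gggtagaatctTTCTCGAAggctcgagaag
The Hspa1a and Hspa1b windows were identical at 247 of 250 bases, and both carried their match 104 bases before the start. Hspe1 carried overlapping triplets on the 2 strands.

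In WT cells, 22 of the 70 tested genes rose with N4 and 7 fell. Over all 12520 genes, 17.2% rose and 23.5% fell. The median difference of the 70 genes was 0.22, and that of all genes was -0.10. The genes that rose were the CCT subunits, the HSP110 exchange factors, the partners of the ribosome and some members of other groups. Those that fell were all DNAJ genes, which make up most of the 70 tested genes. Among them, Dnajc6 passed the filter on low signal only through its WT non-pulsed arrays. Under other scalings the median of all genes moved from -0.10 to 0.08 (quantile normalization) and 0.30 (median centring). The median of the 70 genes was then 0.21 and 0.62, with 22 higher and 4 lower genes under quantile normalization and 15 higher and 2 lower under median centring. The count of higher genes dropped to 13 without WT N4 replicate 1 and to 14 without WT non-pulsed replicate 2. The count of lower genes was then 2 and 3, and it was also 3 without WT non-pulsed replicate 1.

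**Figure D1:**
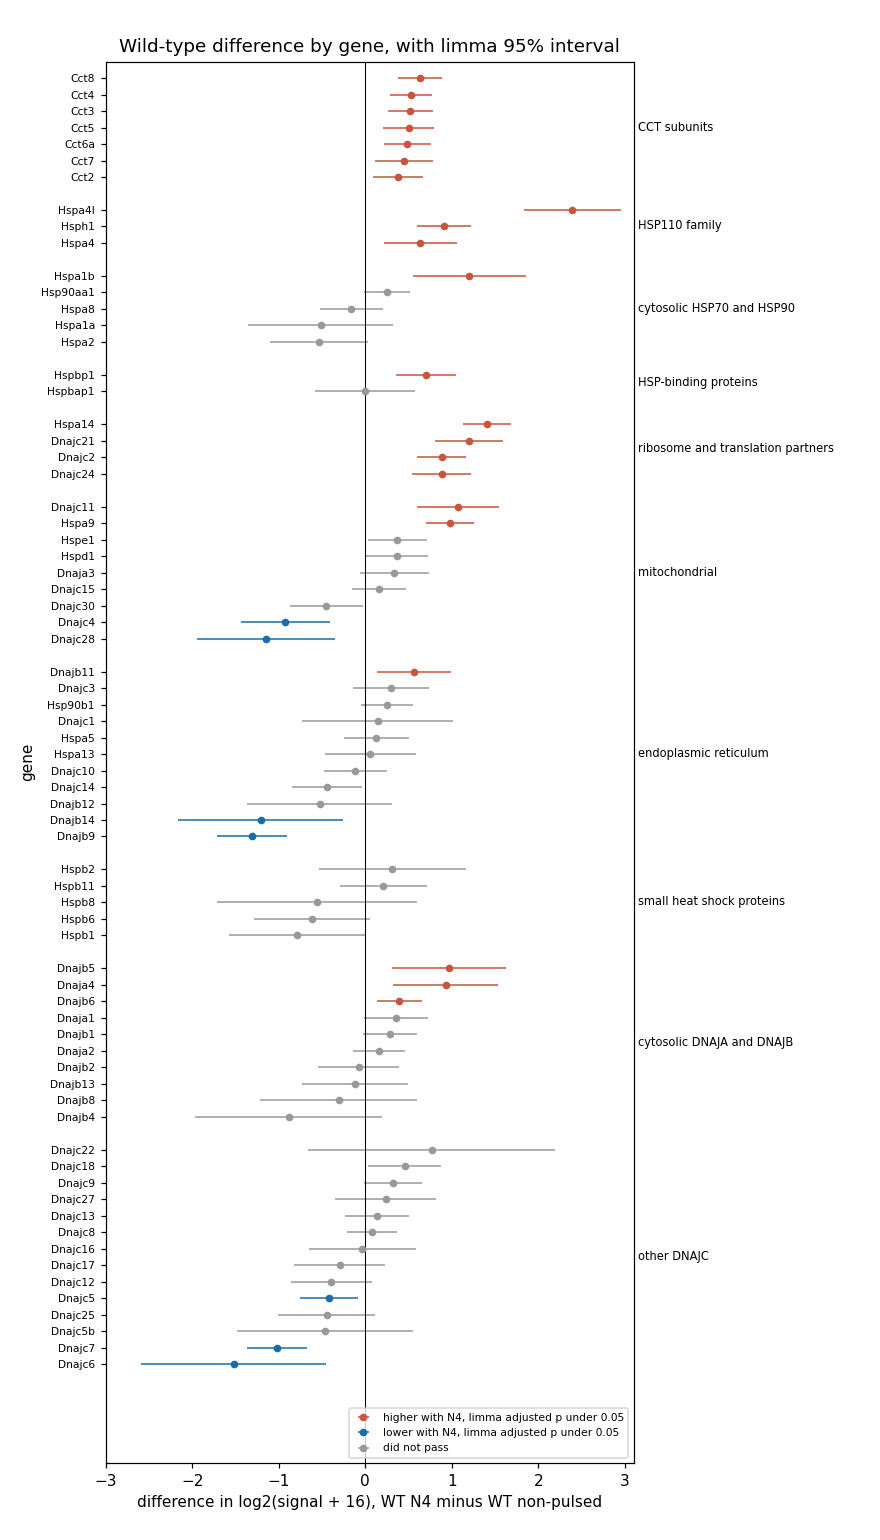
Difference between WT N4 and WT non-pulsed cells in log2(signal + 16) for each of the 70 tested genes, grouped by role on the vertical axis, with points for the limma estimate and bars for its 95% interval. All CCT subunits, all HSP110 genes and all ribosome and translation partners lie to the right of 0. The 7 genes that fell are DNAJ genes of the mitochondrial, ER and other DNAJC groups.

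The cytosolic chaperonin CCT is a double ring built from 8 different subunits. All 7 tested Cct genes rose with N4 in WT cells, by 0.38 to 0.64 with a median of 0.50. Cct8 had the largest difference: it was at 12.45 and 12.39 in WT non-pulsed and at 13.00 and 13.12 in WT N4 cells, a rise of 0.64 (SE 0.11, adjusted p = 0.00232). Cct4 was at 13.11 and 13.15 without peptide and at 13.63 and 13.69 with it, a rise of 0.53 (SE 0.11, adjusted p = 0.00429). Cct2 had the smallest difference, from 13.58 and 13.46 to 13.85 and 13.96, a rise of 0.38 (SE 0.13, adjusted p = 0.0416). Every array with N4 was above both arrays without it for each of these 3 subunits. Cct3 rose by 0.52, Cct5 by 0.50, Cct6a by 0.49 and Cct7 by 0.45. Tcp1, the remaining subunit, went from 13.29 and 13.02 to 13.68 and 13.66, a rise of 0.52 (SE 0.13, adjusted p = 0.0142). In the probe sets used, subunits of the ring thus moved by similar amounts. Cct6b, a form of the zeta subunit known from testis, and Cct8l1 stayed below the filter on low signal. With the arrays centred on their medians only 2 of the 7 genes passed, although their differences were then larger, from 0.78 to 1.04. Without the mean-variance trend of the fit 4 passed. With 1 array left out, 3 passed without WT N4 replicate 1 or WT non-pulsed replicate 2 and 4 without WT N4 replicate 2. Other probe sets of Cct3 and Cct4 included 1 each with a lower value with N4, at -0.67 and -0.18. Further probe sets spread more widely than those used. They reached 1.23 for Cct3 and 0.70 for Cct4, and gave 0.89 for Cct7, 0.72 for Cct6a and 0.28 and 0.60 for Cct2.

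**Figure D2:**
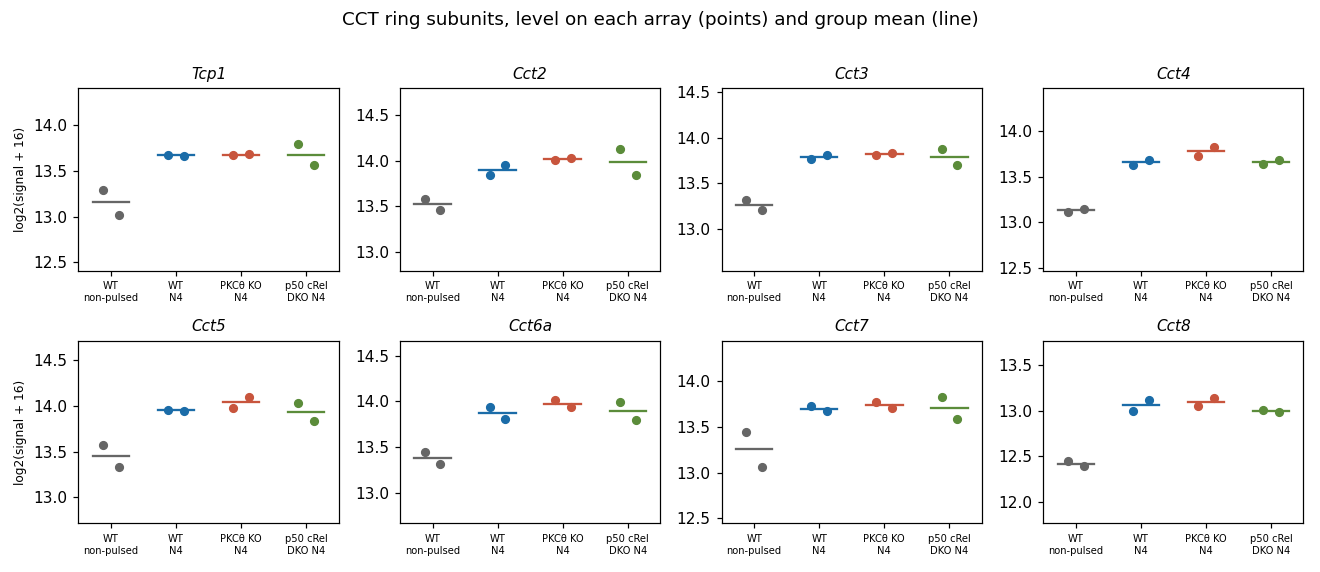
Level of the 8 ring subunit genes on each array in log2(signal + 16) (points, 2 arrays a group) and the group mean (line), with a vertical axis of its own for each gene that does not start at 0. The WT non-pulsed arrays are the lowest for each gene, and the 3 groups with N4 lie close together.

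The HSP110 proteins, distant relatives of HSP70, act as its exchange factors and help it pull proteins out of aggregates. All 3 HSP110 genes rose with N4 in WT cells. Hspa4l had the largest rise of the 70 genes. It was at 8.56 and 8.74 in WT non-pulsed and at 10.68 and 11.41 in WT N4 cells, a rise of 2.39 (SE 0.25, adjusted p = 0.000163), or 5.25-fold on this scale. Its other 4 probe sets were higher by 1.17 to 1.67. Hsph1, also known as HSP105, went from 12.20 and 11.95 to 13.02 and 12.95, a rise of 0.91 (SE 0.14, adjusted p = 0.00102). Hspa4 went from 12.78 and 12.34 to 13.29 and 13.11, a rise of 0.64 (SE 0.19, adjusted p = 0.0241). For all 3 genes the WT N4 arrays were above both WT non-pulsed arrays. Hspa4 was less uniform over its probe sets, with values from -0.19 to 0.26 in the other 3, and 2 of the 3 genes passed under median centring, without WT N4 replicate 1 or without WT non-pulsed replicate 2.

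Of the 5 tested genes of the cytosolic HSP70 and HSP90 group, Hspa1b rose and the other 4 did not pass. Hspa1b encodes the HSP70 that cells make on stress. It was at 8.57 and 8.65 in WT non-pulsed and at 9.50 and 10.13 in WT N4 cells, a rise of 1.20 (SE 0.29, adjusted p = 0.0098), and without WT N4 replicate 2 the adjusted p was 0.0597. All 3 of its probe sets were higher, by 1.20, 1.10 and 1.12. Hspa1a, its near copy, was lower and less uniform, at 7.03 and 7.29 without peptide and at 6.20 and 7.09 with it. Its difference of -0.51 (SE 0.37, adjusted p = 0.307) came from a single probe set. Short probes may not separate these near-identical copies, so the assignment of a signal to one of them is uncertain.

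Hspa8 encodes the constitutive HSP70 of the cytosol, and Hsp90aa1 an HSP90 that stress can raise. Hspa8 was at 14.51 and 14.21 in WT non-pulsed and at 14.26 and 14.14 in WT N4 cells, a difference of -0.16 (SE 0.16, adjusted p = 0.471) with overlapping groups. Hsp90aa1 went from 13.76 and 13.79 to 14.10 and 13.95, a difference of 0.25 (SE 0.12, adjusted p = 0.12) that did not pass although the groups did not overlap. The probe set used was not typical for either gene. For Hsp90aa1, 2 other probe sets were higher by 0.94 and 0.76, both with an adjusted p of 0.006 over probe sets. For Hspa8, the other 3 probe sets were all higher, by 0.68 (limma adjusted p over probe sets 0.012), 0.41 and 0.23. Of these, only the first passed. These probe sets were looked at after the values of the genes were seen. Hspa2, which is best known from the testis, differed by -0.53 and did not pass.

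**Figure D3:**
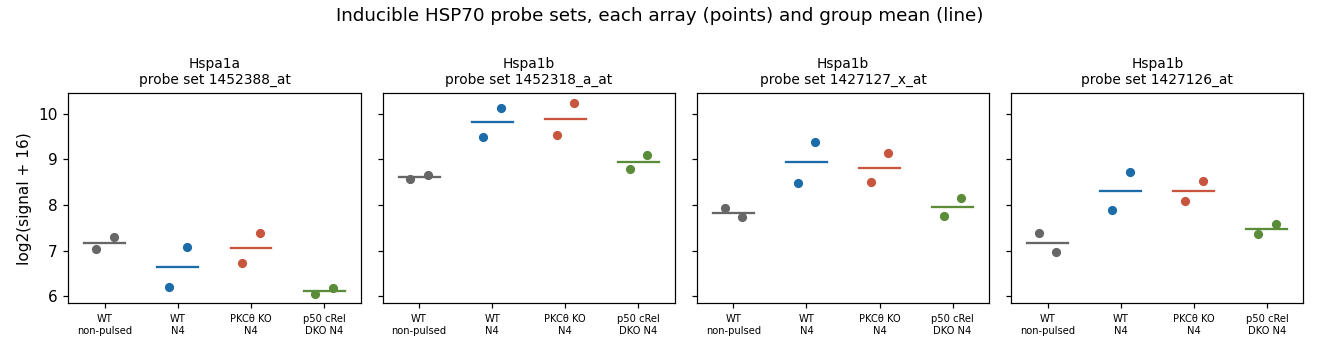
Level of each Hspa1a and Hspa1b probe set on each array in log2(signal + 16) (points, 2 arrays a group) with the group mean (line). The 3 Hspa1b probe sets are higher in WT N4 and PKC theta KO N4 cells than in WT non-pulsed and p50 cRel DKO N4 cells, while the Hspa1a probe set is not higher with N4 in WT cells.

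A further group of genes acts beside the ribosome or in translation, and all 4 of its members rose with N4. Hspa14 and Dnajc2 form the ribosome-associated complex that meets chains as they leave the ribosome. Hspa14 was at 11.03 and 10.88 in WT non-pulsed and at 12.34 and 12.38 in WT N4 cells, a rise of 1.41 (SE 0.12), and its adjusted p of 7.99e-05 was the lowest of the 70 genes. Dnajc2 went from 12.01 and 11.80 to 12.81 and 12.77, a rise of 0.88 (SE 0.12, adjusted p = 0.0007). Both groups of arrays were tight and far apart for these partners. Dnajc21, a factor of large ribosomal subunit maturation, went from 10.78 and 10.29 to 11.73 and 11.75, a rise of 1.20 (SE 0.17, adjusted p = 0.00079). Dnajc24, which acts in the synthesis of diphthamide on elongation factor eEF2, went from 9.14 and 9.13 to 10.10 and 9.94, a rise of 0.88 (SE 0.15, adjusted p = 0.00189). All 4 genes also passed when any 1 array was left out and under both other scalings, and 3 passed with the mean of all probe sets. Hspbp1, a further HSP70 exchange factor, rose by 0.70 (SE 0.15, adjusted p = 0.00642), from 10.28 and 10.10 to 10.98 and 10.80. It did not pass without WT N4 replicate 1 (0.61, adjusted p = 0.0506 in limma).

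Of 9 tested mitochondrial genes, 2 rose, 2 fell and 5 did not pass, while 17.2% of all genes rose and 23.5% fell. Hspa9, the HSP70 of the mitochondrial matrix, was at 12.59 and 12.35 in WT non-pulsed and at 13.45 on both WT N4 arrays, a rise of 0.98 (SE 0.12, adjusted p = 0.000365), and its other 4 probe sets were higher by 0.27 to 2.06. Dnajc11, a protein of the mitochondrial membranes tied to cristae, rose by 1.07 (SE 0.21, adjusted p = 0.0037), but its other probe sets gave 0.00 and -0.46. The chaperonin pair of the matrix did not pass. Hspd1 (HSP60) went from 13.67 and 13.33 to 13.92 and 13.81, a difference of 0.36 (SE 0.16, adjusted p = 0.103). Hspe1 (HSP10), the gene with the triplets shown above, went from 13.31 and 13.08 to 13.63 and 13.50, a difference of 0.37 (SE 0.15, adjusted p = 0.0819). For both genes the WT N4 arrays nevertheless lay above the WT non-pulsed arrays. Dnajc28 fell by 1.15 (SE 0.35, adjusted p = 0.0295), from 7.16 and 7.12 to 5.84 and 6.15, but its other probe set gave -0.02. Dnajc4 fell by 0.92 (SE 0.23, adjusted p = 0.0111), from 9.18 and 8.63 to 7.91 and 8.06. Without WT N4 replicate 1 or without WT non-pulsed replicate 1 neither of these 2 genes passed, and Dnajc28 did not pass without WT N4 replicate 2 or WT non-pulsed replicate 2 either. Dnajc15, an inner membrane protein that restrains respiratory complex I, differed by 0.16 (SE 0.14, adjusted p = 0.399).

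Chaperones of the endoplasmic reticulum (ER) are classically driven by the ER stress response element, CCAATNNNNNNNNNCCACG. It was found in 3 of the 67 promoter windows (4.48%) and in 0.125% of the windows of all array genes. These 3 windows are shown whole, with the element in capitals, because none of the 3 genes passed the test.
Hspa5, chr2:34771840-34772089, plus strand: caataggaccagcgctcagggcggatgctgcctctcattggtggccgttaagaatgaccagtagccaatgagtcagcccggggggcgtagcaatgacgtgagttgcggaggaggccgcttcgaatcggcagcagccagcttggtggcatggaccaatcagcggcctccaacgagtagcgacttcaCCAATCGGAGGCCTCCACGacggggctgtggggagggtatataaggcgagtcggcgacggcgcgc
Hsp90b1, chr10:86705445-86705694, minus strand: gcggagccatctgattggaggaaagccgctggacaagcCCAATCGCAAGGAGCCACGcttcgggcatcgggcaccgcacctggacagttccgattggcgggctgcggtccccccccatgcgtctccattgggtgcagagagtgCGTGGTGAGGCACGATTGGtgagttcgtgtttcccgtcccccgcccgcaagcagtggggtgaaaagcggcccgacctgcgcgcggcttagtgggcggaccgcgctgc
Dnajc3, chr14:118937682-118937931, plus strand: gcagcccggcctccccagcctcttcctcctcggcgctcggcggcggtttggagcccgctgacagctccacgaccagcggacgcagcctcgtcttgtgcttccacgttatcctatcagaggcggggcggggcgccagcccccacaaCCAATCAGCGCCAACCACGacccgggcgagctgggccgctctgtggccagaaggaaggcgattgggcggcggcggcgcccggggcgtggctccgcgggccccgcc
Hsp90b1 carried the element on both strands.

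Of 11 tested ER genes, 1 rose, 2 fell and 8 did not pass, while 17.2% of all genes rose and 23.5% fell. Hspa5 (BiP), the HSP70 of the ER, was at 13.86 and 13.51 in WT non-pulsed and at 13.87 and 13.75 in WT N4 cells, a difference of 0.13 (SE 0.16, adjusted p = 0.58). Hsp90b1 (GRP94), the HSP90 of the ER, went from 13.50 and 13.18 to 13.60 and 13.58, a difference of 0.25 (SE 0.13, adjusted p = 0.161). Dnajc3, a BiP partner that also inhibits eIF2 alpha kinases, went from 11.05 and 11.51 to 11.42 and 11.74, a difference of 0.30 (SE 0.19, adjusted p = 0.258). The arrays of Hspa5 and Dnajc3 overlapped between the groups. Another Hspa5 probe set was higher by 0.41 (adjusted p over probe sets 0.020) and a further one lower by 0.275, so the probe sets of this gene disagreed. Those of Dnajc3 disagreed too, with -0.18, -0.30, -0.05 and 0.60 in the probe sets not used. The other Hsp90b1 probe set differed by 0.58 and did not pass (limma adjusted p over probe sets 0.078). Dnajb9 (ERdj4), a BiP partner that holds the stress sensor IRE1 inactive, had the lowest adjusted p among the genes that fell. It was at 11.76 and 11.51 without peptide and at 10.34 and 10.31 with it, and so fell by 1.31 (SE 0.18, adjusted p = 0.000599). Dnajb14, an ER membrane protein of protein disposal, fell by 1.21 (SE 0.42, adjusted p = 0.0471), from 7.07 and 7.61 to 5.65 and 6.61. Dnajb11 (ERdj3), which hands unfolded chains to BiP, moved the other way, with a rise of 0.56 (SE 0.19, adjusted p = 0.041) from 11.01 and 10.56 to 11.44 and 11.26. The calls of Dnajb14 and Dnajb11 were close to the threshold and were lost in 11 of 17 and 10 of 18 alternative settings. Without WT N4 replicate 1 the values were -0.73 and 0.47, and without WT non-pulsed replicate 2 they were -0.94 and 0.34, none of which passed.

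Of 10 tested DNAJA and DNAJB genes of the cytosol and nucleus, 3 rose and 7 did not pass, while 17.2% of all genes rose. Dnaja4 rose by 0.93 (SE 0.27, adjusted p = 0.0221), from 7.56 and 7.92 to 8.39 and 8.95. Dnajb5 rose by 0.97 (SE 0.29, adjusted p = 0.0262), from 8.23 and 8.36 to 9.60 and 8.92. Dnajb6, known for holding back polyglutamine aggregates and the second gene with a triplet, rose by 0.40 (SE 0.12, adjusted p = 0.0249), from 12.05 and 12.16 to 12.46 and 12.55. In these 3 genes no array with N4 was as low as one without. Dnaja4 and Dnajb6 had other probe sets that moved the opposite way, down to -0.40 and -0.90. Dnaja4 did not pass without WT N4 replicate 2 (0.65) or WT non-pulsed replicate 1 (0.75), and Dnajb5 did not pass without WT N4 replicate 1 (0.63) or either WT non-pulsed array (0.91 and 1.04). Dnajb6 did not pass when any 1 of the 4 WT arrays was left out (0.34 to 0.45), with quantile normalization (0.21) or with the mean of all probe sets (0.04). The main HSP70 partners did not pass in the probe sets used. Dnaja1 went from 13.26 and 12.96 to 13.62 and 13.31, a difference of 0.36 (SE 0.16, adjusted p = 0.117). Dnajb1 (HSP40), a classic heat shock gene, went from 11.19 and 11.14 to 11.50 and 11.40, a difference of 0.29 (SE 0.14, adjusted p = 0.128). Another Dnajb1 probe set was higher by 0.56 (limma adjusted p over probe sets 0.031). The other Dnaja1 probe sets gave 0.10 and 0.08 and did not pass. These probe sets, too, were looked at after the values of the genes were seen.

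Of the 14 other DNAJC genes tested, 3 fell and none rose, while 23.5% of all genes fell and 17.2% rose. Dnajc7, which binds both HSP70 and HSP90, was at 13.12 and 12.76 in WT non-pulsed and at 11.98 and 11.87 in WT N4 cells and fell by 1.02 (SE 0.15, adjusted p = 0.000956). Dnajc6 (auxilin), which uncoats clathrin vesicles with HSP70, fell by 1.52 (SE 0.47, adjusted p = 0.0301), from 6.52 and 6.82 to 4.81 and 5.49. The mean of Dnajc6 over all arrays was 5.52, near the filter of 5.38. It passed that filter only through the WT non-pulsed arrays, so its fall cannot be read apart from the filter. Dnajc5, the cysteine string protein of secretory vesicles, fell by 0.42 (SE 0.15, adjusted p = 0.0467), from 11.15 and 10.96 to 10.55 and 10.72. Dnajc7 passed in all but 1 of its alternative settings, median centring, where its difference was -0.62. Dnajc5 no longer passed in 13 of 18 settings, with a difference of -0.02 under median centring. Dnajc6 did not pass without WT N4 replicate 1 (-1.18) or either WT non-pulsed array (-1.67 and -1.37). The WT non-pulsed arrays, in which these 3 genes were higher, were also those with the B cell, dendritic cell and neutrophil transcripts given above.

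None of the 5 tested genes whose symbol is Hspb followed by a number passed. They are Hspb11, of intraflagellar transport, and 4 others of the group of small heat shock proteins, which hold unfolding proteins without ATP. The median difference of the 5 was -0.56, and it was -0.10 with quantile normalization, -0.16 with median centring and -0.24 without WT non-pulsed replicate 2. Hspb1 (HSP27) was at 7.58 and 6.99 in WT non-pulsed and at 6.27 and 6.73 in WT N4 cells, a difference of -0.78 (SE 0.35, adjusted p = 0.104). The genes below the filter were Cct6b, Cct8l1, Dnajb3, Dnajb7, Dnajc5g, Hspa12a, Hspa12b, Hspa1l, Hspb3, Hspb7 and Hspb9, with levels between 4.09 and 5.99 on all arrays.

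**Figure D4:**
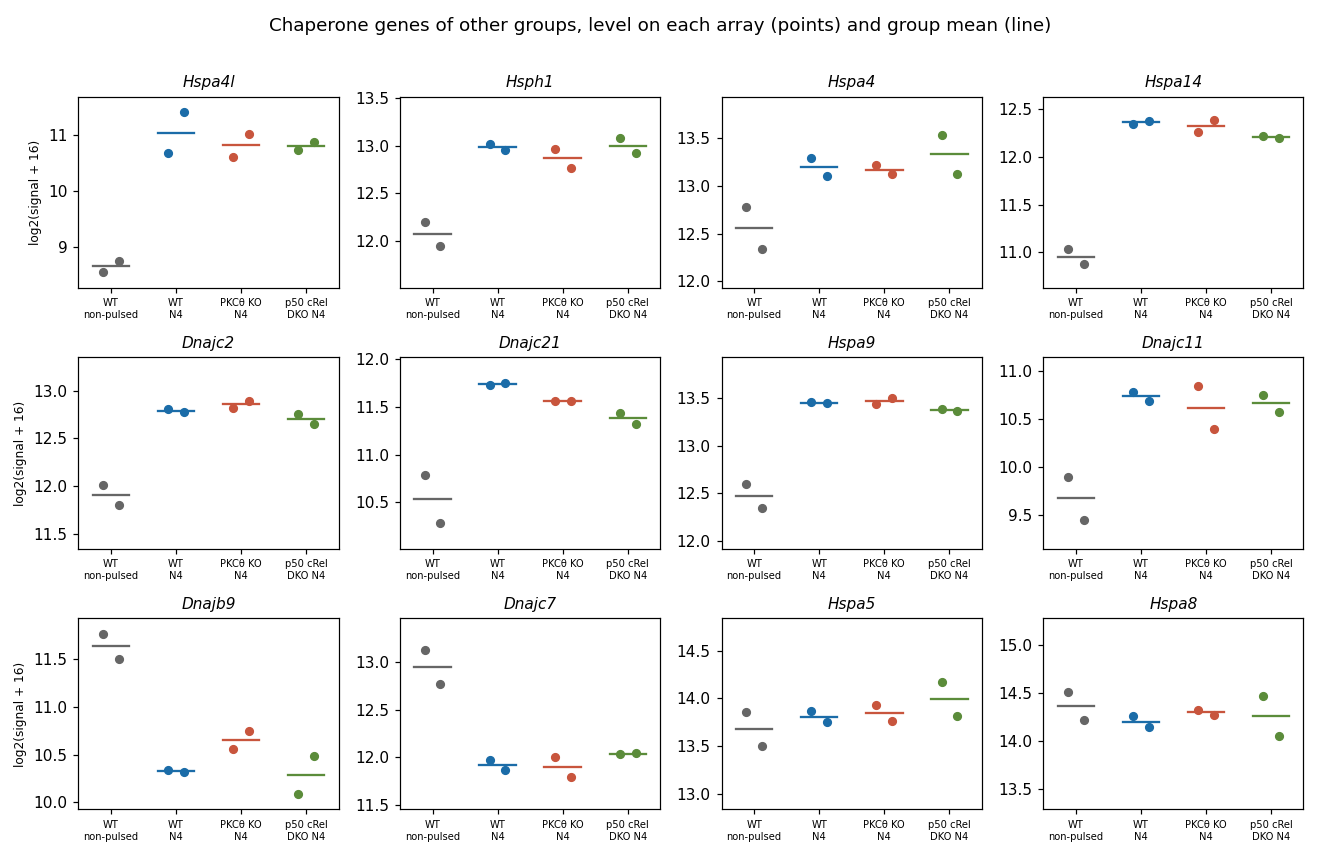
Level of 12 genes of the HSP110, ribosome, mitochondrial, ER, DNAJC and cytosolic HSP70 groups on each array in log2(signal + 16) (points, 2 arrays a group) and the group mean (line), with a vertical axis of its own for each gene that does not start at 0. Hspa4l through Dnajc11 are lowest in WT non-pulsed cells, Dnajb9 and Dnajc7 are highest there, and Hspa5 and Hspa8 overlap between the WT groups.

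Promoter letters and calls were set side by side for the genes that had both. Of 10 tested genes with either pair of the heat shock element, 4 rose (Cct5, Dnajb6, Hspa1b and Hsph1) and 0 fell. Of 46 without one, 14 rose and 6 fell. Over all 12520 tested genes, 17.2% rose and 23.5% fell. Dnaja1, Dnajc10, Dnajc27, Hspa1a, Hspb1 and Hspe1 had a pair and did not pass. Either pair was found in 17.9% of the 67 windows and in 11.1% of the windows of all array genes. The split depends on the windows, since 17 of the 67 genes had several listed starts and only the first was searched. Some windows, such as those of Hsph1, Dnajc10 and Dnajc27, overlapped the gene itself. The window of Hspe1 overlapped Hspd1, which was counted as without a pair.

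The genes of chaperone partners, none of them among the 81, were read from lists of known function. Beside each count stand the shares over all genes, of which 17.2% rose and 23.5% fell in WT cells. Of 18 tested partners of HSP90, 8 rose with N4 in WT cells and none fell. Stip1, which links HSP70 to HSP90, rose by 1.18 (SE 0.13, adjusted p = 0.000224), and Fkbp4, an immunophilin of steroid receptor complexes, by 1.29 (SE 0.20, adjusted p = 0.00112). Cacybp rose by 0.75 and Nudc by 0.88. Of 14 exchange factors and other partners of HSP70, 6 rose and 1 fell. Bag2, which binds HSP70 and restrains the ubiquitin ligase CHIP, went from 8.71 and 8.73 to 10.67 and 10.74, a rise of 1.98 (SE 0.14, adjusted p = 3.55e-05). Grpel1, the exchange factor of Hspa9, rose by 0.74, Bag4 by 0.99 and Sec63, a DNAJ protein of the ER translocon, by 0.71. Of 17 prefoldin and other CCT partner genes, Tcp1 among them, 7 rose and 2 fell. Prefoldin delivers actin and tubulin to CCT, and its subunits Pfdn4, Pfdn2 and Pfdn1 rose by 0.92, 0.93 and 0.66. Of 13 mitochondrial folding and proteolysis genes, 8 rose and none fell, with Tomm70a, the import receptor that takes clients from HSP70 and HSP90, up by 1.62 (SE 0.13, adjusted p = 5.16e-05), the protease Lonp1 up by 1.34, Phb2 by 0.76 and the mitochondrial HSP90 Trap1 by 0.76.

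The ER list was split, with 7 of 21 genes higher and 7 lower, against 17.2% and 23.5% of all genes. The median difference of the list was 0.12, and its 7 higher genes are not named here. The 4 genes of the list with the lowest p were all lower and belong to sensing and signalling of ER stress or disposal. Ddit3 (CHOP) fell by 1.86 (SE 0.31, adjusted p = 0.0018), Syvn1 by 1.47, Eif2ak3 (PERK) by 1.32 and Ern1 (IRE1 alpha) by 1.20. Among 7 other stress-inducible genes, 4 fell and none rose. Hmox1, the haem oxygenase that macrophages express strongly, went from 12.43 and 12.51 to 8.20 and 8.91 and fell by 3.91 (SE 0.44, adjusted p = 0.000253). Clu fell by 2.30, Sqstm1 by 1.70 and Zfand2a, a heat shock factor target, by 0.88. Of 5 genes on the list of heat shock factors and their regulators, 4 were tested (Hsf2, Hsbp1, Hsf2bp and Hsf4), and none passed in WT cells. The remaining gene had no probe set with only its name and was not measured, and Hsf1 is not among those tested. In p50 cRel DKO N4 against WT non-pulsed cells, 1 of the 4 was higher (limma adjusted p = 0.00807), against 16.5% of all genes. Hsf2 was uneven between replicates, at 5.12 and 8.21 in WT non-pulsed and at 6.97 and 9.06 in WT N4 cells.

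The next comparison asked whether the level of these genes with N4 differs in the cells labelled PKC theta KO or p50 cRel DKO. In PKC theta KO N4 against WT N4 cells, 0 of 70 genes passed, against 0.024% of all genes. At an unadjusted p under 0.05 there was 1 of the 70 genes, against 2.96% of all genes. The only genes that passed in this comparison were 3 Y-linked genes, named below. Prkcq itself differed by -0.66 and did not pass. In p50 cRel DKO N4 against WT N4 cells, 0 of 70 passed, against 0.519%, with 3 at an unadjusted p under 0.05, against 6.29%. In p50 cRel DKO N4 against PKC theta KO N4 cells, 0 of 70 passed, against 0.431%, with 5 at an unadjusted p under 0.05, against 7.16%. The median difference of the 70 genes was 0.04, 0.00 and -0.03 in these comparisons, and none of the 3 counts left 0 in any of the 18 alternative settings. The Y-linked genes Eif2s3y, Kdm5d and Uty were lower on all 4 knockout arrays than on the WT arrays, so sex and genotype cannot be told apart. Xist, which marks the inactive X chromosome of females, was between 12.27 and 12.57 on the knockout arrays, between 5.18 and 6.65 on 3 WT arrays and at 11.84 on WT non-pulsed replicate 2, an array that also carried the Y-linked transcripts.

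For the CCT subunits the knockout differences were small, from 0.04 to 0.12 in PKC theta KO N4 and from -0.06 to 0.08 in p50 cRel DKO N4 cells. The limma 95% intervals of the 7 genes together reached from -0.30 to 0.40 for the first and from -0.33 to 0.37 for the second, which does not show that the levels are equal. Cct8 was at 13.05 and 13.14 in PKC theta KO N4 and at 13.01 and 12.99 in p50 cRel DKO N4 cells, beside 13.00 and 13.12 in WT N4 cells. Hspa4l was at 10.62 and 11.02 and at 10.74 and 10.88, within the span of the WT N4 arrays except for 1 array just below it. Hspa9 was at 13.44 and 13.50 and at 13.38 and 13.36. Dnajc21 was at 11.57 and 11.56 and at 11.44 and 11.32, below both WT N4 arrays, with differences of -0.17 and -0.36 that did not pass (adjusted p = 1.00 and 0.889).

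Hspa1b had the lowest p of the 70 genes in p50 cRel DKO N4 against WT N4 cells and did not pass. It was at 8.80 and 9.10 in p50 cRel DKO N4, at 9.53 and 10.24 in PKC theta KO N4 and at 9.50 and 10.13 in WT N4 cells. Both double knockout arrays were below all arrays of the other N4 groups and above both WT non-pulsed arrays, and the difference from WT N4 was -0.86 (SE 0.29, adjusted p = 0.461, and from 0.0683 to 1.00 over the alternative settings). Against PKC theta KO N4 it was -0.93 (SE 0.29, adjusted p = 0.429). The other Hspa1b probe sets gave -0.98 and -0.82 for the double knockout against WT N4. In these probe sets double knockout replicate 1, at 7.75 and 7.38, was below WT non-pulsed replicate 1, at 7.93 and 7.39. Hspa1a, with a promoter window nearly the same, was at 6.05 and 6.18 in p50 cRel DKO N4 and at 6.72 and 7.39 in PKC theta KO N4 cells, a difference of -0.94 (SE 0.37, adjusted p = 0.627).

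The remaining genes with the lowest p in each direction did not pass either. In PKC theta KO N4 against WT N4 cells, Dnajb9 differed by 0.33, Dnajc17 by 0.34, Dnajc12 by 0.29, Hsp90b1 by 0.20 and Dnajb6 by 0.17. Dnajb8 differed by -1.04, Hspbap1 by -0.33, Dnajb2 by -0.27, Dnajc30 by -0.25 and Dnajc13 by -0.19. In p50 cRel DKO N4 against WT N4 cells, Dnajc15 differed by 0.36 (SE 0.14, adjusted p = 0.599), from 12.73 and 12.71 to 13.19 and 12.97. Dnajc5b differed by 0.60, Dnajc3 by 0.37, Dnaja3 and Dnajc25 by 0.29 each, Dnajc22 by -1.07, Dnajb2 by -0.48 and Hspbap1 by -0.46. Between the knockouts, double minus PKC theta KO, Dnajb8 differed by 1.22, Dnajc28 by 0.44, Dnajc30 by 0.28, Dnaja3 by 0.21 and Dnajc15 by 0.20. Dnajc22 differed by -1.62, Dnaja4 by -0.65 and Dnajb9 by -0.37. Dnajb8, Dnajc22 and Dnajc5b lay near the filter on low signal, with no array above 6.84.

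**Figure D5:**
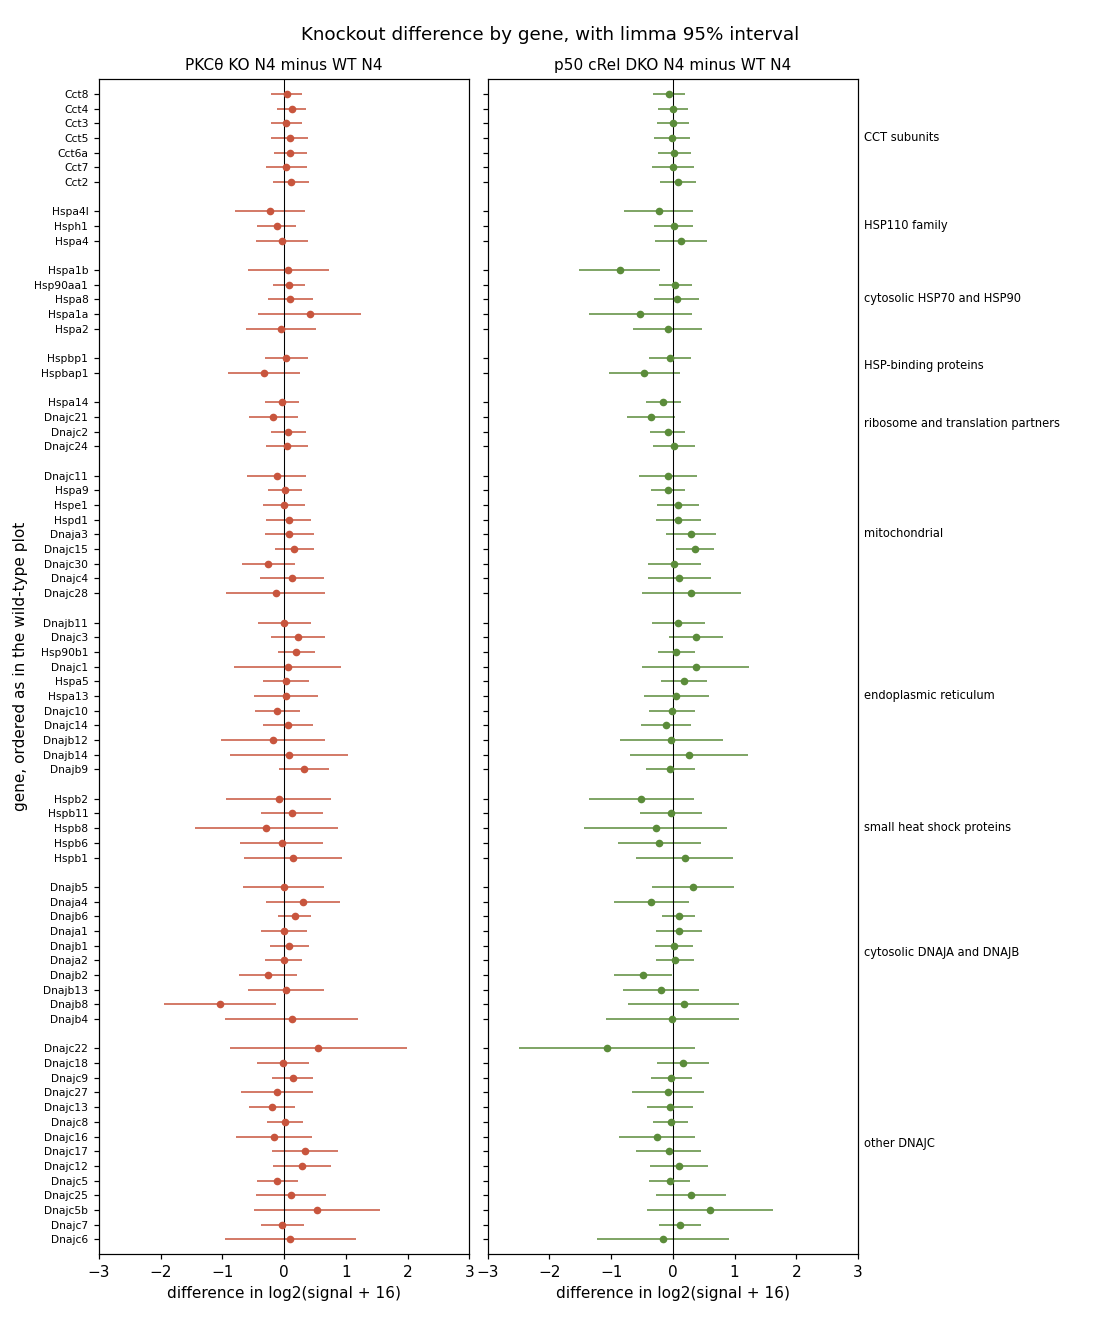
Difference of PKC theta KO N4 (left) and p50 cRel DKO N4 (right) from WT N4 cells in log2(signal + 16) for each of the 70 tested genes, in the order of the plot of the WT difference, with points for the limma estimate and bars for its 95% interval. No gene passed, and among the HSP70 genes Hspa1b lies at -0.86 on the right and at 0.07 on the left.

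Both knockouts were also set against WT non-pulsed cells, which are the same 2 arrays as in the WT comparison. In PKC theta KO N4 cells 25 of the 70 genes were higher and 8 lower, against 16.5% and 24.0% of all genes. In p50 cRel DKO N4 cells 25 were higher and 6 lower, against 16.5% and 22.8%. All 7 tested CCT genes rose in both, by 0.48 to 0.67 and by 0.45 to 0.58, as did the 3 HSP110 genes and the 4 ribosome and translation partners. Hspa4l rose by 2.17 and 2.16, Hspa14 by 1.37 and 1.25 and Hspa9 by 0.99 and 0.90. Hspa1b rose by 1.27 in PKC theta KO N4 (adjusted p = 0.00745), while in p50 cRel DKO N4 cells its difference of 0.34 did not pass (adjusted p = 0.395). The direct test between these knockouts, given above, did not pass, so a difference in the response of Hspa1b is not shown. Hsp90aa1 rose by 0.33 in PKC theta KO N4 cells (adjusted p = 0.0485), and its difference of 0.29 in p50 cRel DKO N4 cells did not pass (adjusted p = 0.0777). Hspe1 differed by 0.36 in the first (adjusted p = 0.0878) and rose by 0.46 in the second (adjusted p = 0.0393). The higher count in p50 cRel DKO N4 cells was 14 without its replicate 1, and the lower count was between 2 and 3 without either of its arrays or either WT non-pulsed array. In PKC theta KO N4 cells the lower count was 4 or 5 without either of its arrays or either WT non-pulsed array.

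Of the 29 genes that rose or fell in WT cells, 21 had further probe sets past the filter and 8 had 1 only. For 7 of the 21 (Cct3, Cct4, Dnaja4, Dnajb6, Dnajc11, Dnajc5 and Hspa4) at least 1 further probe set differed in the opposite direction. A probe set can read a transcript form or a related gene, and which of them holds the gene's main transcript was not tested.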

How the data were processed

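Expression of splenic CD8 T cells was read from 8 one-colour Affymetrix arrays, 2 in each of 4 groups taken from the sample titles. The deposited intensity values, 1 linear signal per probe set, were made by the authors; per the submitters' processing notes the tools were MAS5 and GCOS 1.4. Each array is scaled as a whole, so a global shift in RNA content is not seen. Of 45101 probe sets, 64 controls were left out, 34945 had 1 symbol in the platform annotation, 932 had several and 9160 were not listed there. Symbols of 34741 were updated by Entrez identifier in RefSeq (GRCm38.p6).

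Values were taken as log2(signal + 16) of the deposited values. Probe sets with a mean under the 40th percentile (5.38) were left out, and the probe set with the highest mean was kept for each of 12520 genes. All 8 arrays entered 1 model with a coefficient per group in limma 3.58.1 (R 4.3.3; lmFit, eBayes with a trend, 4 residual degrees of freedom, Benjamini-Hochberg adjustment over all genes). The script was tested on simulated data. The genes named were a fixed set of major chaperones and every CCT subunit, the 10 largest rises and falls of members that passed, where fewer than 5 passed in a direction the lowest p-values up to 5, and of each partner list the 4 lowest p-values in WT cells. Hspa2, Hspa4, Hspbp1, Dnajb6 and Dnajc24 lie outside this rule in WT cells and were named after their values were seen. Members and lists were chosen with earlier results of these data known. Alternatives were quantile normalization, median centring, pseudocounts of 1 and 64, no filter, a 60th percentile filter, the mean of all probe sets, no trend, the arrays of the compared groups only, the replicate number as a block and each array left out. Microarrays give no counts, so the number of arrays limits the precision.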

Additional observations from a re-analysis of the deposited data

How the results depend on the processing

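Each count of genes that passed between groups with N4 was 0 in all 18 alternatives. Against WT non-pulsed cells, the count of lower genes in WT N4 cells was 7, and 4 with the 60th percentile filter, 4 with no filter, 4 with quantile normalization and 2 with median centring. In PKC theta KO N4 cells it was 8, and 5 with the 60th percentile filter, 5 with quantile normalization, 1 with median centring and 13 with the replicate block. In p50 cRel DKO N4 cells it was 6, and 2 with median centring, 11 with only the arrays of the compared groups and 14 with the replicate block. With 1 array left out, the lower counts ran from 2 to 7, 4 to 9 and 2 to 8 in these groups, and the higher counts from 13 to 22 in WT N4 and 14 to 24 in p50 cRel DKO N4 cells. The cause was not tested. With an array left out, the lone array of its group is assumed to vary like the other groups. Same-numbered arrays deviated together (r of 0.25 to 0.58 across genes), but the titles number only the second array of a group and no label ties a number to a shared litter or day, so the number was not taken as a pairing. With the replicate number as a block, the higher counts were 30, 34 and 33 and the lower count in WT N4 cells 10, and Hsp90aa1, Hspd1, Hspe1, Dnaja1 and Dnajb1 passed in WT cells. Of the named genes, the 25 results that passed kept their call in 358 of 447 alternative fits and lost it in 89, and 42 that did not pass gained a call in 11 of 748. Hspa4l, Hspa14, Hspa9, Hsph1, Dnajc2, Dnajb9 and Cct8 passed in all 18.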
